A study of Mus musculus with 24 samples.

Results

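The genes examined here protect cells from foreign chemicals and from oxidants. They were 36 genes listed by symbol: glutathione transferases, UDP-glucuronosyltransferases, flavin monooxygenases, cytochromes of the P450 family, an epoxide hydrolase, transporters, genes that make or recycle glutathione, and enzymes that remove peroxides. Of the 36 genes, 29 had at least 1 fragment in the table of 65535 MspI fragments, and they held 293 fragments. The table named 3860 genes in all. The members were listed by symbol, with earlier results of these data known.

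The samples were brown adipose tissue (BAT) of infant female C57BL/6J mice at PND 12. There were 12 VEH libraries, from litters of dams gavaged with olive oil, and 12 DDT libraries, from litters of dams gavaged with a mixture of DDT isomers from mid gestation into the first days after birth. The BAT of several female littermates was pooled into each library, so the litter was the replicate and differences between pups were not measured. Reduced representation bisulfite sequencing (RRBS) cuts DNA at CCGG with MspI and counts, at the CpGs of each fragment, a cytosine that stayed as methylated and one that was converted as not methylated. No RNA was measured in these libraries, so neither the tissue label nor the activity of these genes could be checked.

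Many foreign chemicals are first oxidized, by cytochromes of the P450 family or flavin monooxygenases. They are then joined to glutathione or glucuronic acid by transferases and carried out of the cell by transporters. The transcription factor NRF2, the product of Nfe2l2, switches on many of these genes under oxidative stress through antioxidant response elements, and the aryl hydrocarbon receptor acts on others through xenobiotic response elements. CpG-rich gene starts are usually unmethylated, and methylation there usually goes with a silent gene.

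In the data, tested fragments within 1000 bp of the starts of these genes carried little methylation in both groups. The exception was that of Mgst2, 805 bp upstream. Median levels were high in the bodies and distant upstream regions of the genes. Under 25% in VEH there were 8 of 26 body fragments and the 7 fragments of an island placed upstream of Cat. No fragment of a detoxification gene differed between DDT and VEH after adjustment. The smallest unadjusted p values belonged to a CpG island placed upstream of Cat, to a coding exon and a distant upstream fragment of Cyp24a1, to a coding exon of Abcb6 and to an intron of Cyp27a1, with differences, DDT minus VEH, of -3.57 to 3.49 percentage points. Near the starts of Gstm4, Cyp20a1, Cyp24a1, Gstm1, Nfe2l2 and Abcd3, some levels lay more than 20 percentage points above the median of all libraries. They came from DDT replicates 1, 2, 4 or 10 and, at Gstm4, also from VEH replicate 5.

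The sequences of 7 fragments are printed because the comparisons turn on them or because they show the contrast between gene starts and the rest. They were read from the GRCm38 sequence on the plus strand, 5′ to 3′, and capitals mark the CpGs. The first 4 had an unadjusted p below 0.05, and the last 3 lie within 1000 bp of a gene start.
Cyp24a1 coding exon, chr2:170487970-170487999: CGgagaagtctctgttgcacttggggattc
Cyp24a1 upstream region, chr2:170528367-170528494: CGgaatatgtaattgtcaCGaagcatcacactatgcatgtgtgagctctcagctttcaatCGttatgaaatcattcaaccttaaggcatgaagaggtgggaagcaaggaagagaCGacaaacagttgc
Abcb6 coding exon, chr1:75177366-75177449: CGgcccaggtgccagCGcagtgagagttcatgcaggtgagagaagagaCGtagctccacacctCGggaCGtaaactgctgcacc
Cyp27a1 intron, chr1:74718430-74718469: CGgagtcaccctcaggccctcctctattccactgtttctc
Gstm1 start, chr3:108017989-108018027: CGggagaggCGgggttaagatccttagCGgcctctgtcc
Slco4a1 start, chr2:180456190-180456221: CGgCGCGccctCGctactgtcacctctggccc
Mgst2 upstream of the start, chr3:51659489-51659556: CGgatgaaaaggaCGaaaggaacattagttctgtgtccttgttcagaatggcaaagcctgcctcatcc
The Cyp24a1 exon fragment and the Cyp27a1 intron fragment each hold 1 CpG, and the Slco4a1 start fragment holds 4 in 32 bp.

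Which genes could be measured depended on where the fragments lay and how many calls they drew. The methylation level is the percent of CpG calls of a fragment that were methylated. A level needed 10 calls or more in a library, and a test needed levels in 8 or more libraries per group. By this rule 93 fragments of 19 genes were tested, and 200 fragments were not, 36 of which had no call in any library. Another 10 genes had fragments of which none could be tested: Gstm2, Gstm3, Gstm5 and Gstm7, Ugt1a9, the flavin monooxygenases Fmo1, Fmo2 and Fmo4, the aldehyde oxidase Aox1, and Gclm, the modifier subunit of the enzyme that limits glutathione synthesis. The other 7, Gsta3, Gsta4, Ugt1a1, Ugt1a2, Ugt1a6a, Ugt1a6b and Abcb11, had no fragment under their symbol and were not analysed here. The Ugt1a genes share their last exons, so fragments named Ugt1a9 may belong to the whole cluster. The Gstm genes are related and lie side by side, so the gene named for a Gstm fragment can be uncertain. Their sequence identity was not computed.

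Gene names are the authors' and can reach far: 52 of the 93 tested fragments lay inside the named gene in GENCODE M21. All 7 fragments of the island named for Cat, about 81 kb upstream of the Cat start, lay in Abtb2.

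Total calls ran from 8371958 to 13768991 in VEH libraries and from 9895508 to 14124652 in DDT libraries, and the depth at the tested fragments differed far more. DDT replicate 4 had a level at only 52 of the 93 fragments and a median of 22 calls, whereas the other libraries had a level at 79 or more, and the medians of VEH libraries were 169 to 286 calls. At the 57 fragments with a VEH mean under 25%, DDT replicate 4 had 45 levels, of which 29 were below 0.1% and 7 above 25%. It was the library farthest from the rest at 31 of the 93 fragments, or 33.3%, against 30.7% over all tested fragments, and DDT replicate 12 was farthest at 15. Of the 2137 levels at the 93 fragments, 26 at 19 fragments lay more than 20 percentage points from the fragment's median, 9 of them in DDT replicate 4, 5 in DDT replicate 12 and 4 in DDT replicate 2. Several results are given with and without DDT replicates 4 and 12. Calls come from PCR reads without molecular identifiers, so the number of calls overstates the number of molecules read.

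Methylation in VEH followed position. Of the 93 fragments, 57 had a VEH mean under 25%, 26 were over 75% and 10 lay between. Within 1000 bp of a start, 42 of 43 fragments were under 25%, with a median of 4.17% against 4.13% over all tested fragments at starts. In gene bodies farther from the start the median was 70.0% over 26 fragments, and upstream beyond 1000 bp it was 79.3% over 24.

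**Figure D1:**
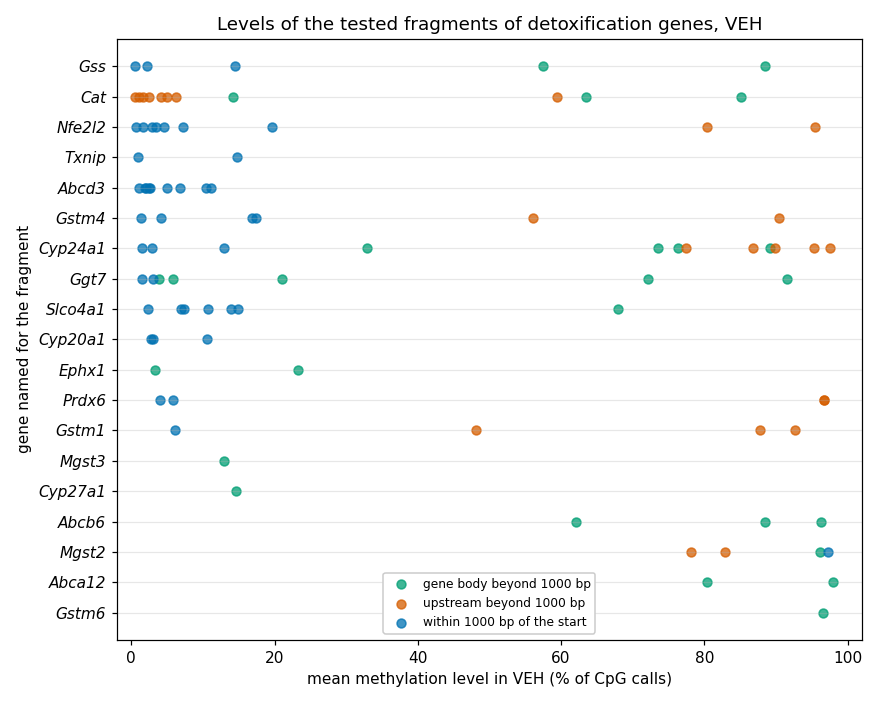
Mean methylation level of each of the 93 tested fragments in VEH, in percent of CpG calls, by the gene the authors named, with colour for the distance class. Points within 1000 bp of a start crowd under 20%, except the Mgst2 fragment at 97.3%.

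Low levels were also found at starts outside the cores of CpG islands. Of the 43 fragments at starts, 26 were in the core of an island and had a VEH median of 3.74%, and 17 were not and had 6.09%, against 6.12% for all such fragments. The starts of Gss, Gstm4, Txnip, Cyp24a1 and Gstm1 were low outside any island core. Some of the 17 were on island shores or rich in CpGs, such as a Gss fragment with 24 CpGs in 187 bp. All 3 tested fragments at the Cyp24a1 start overlap the gene Pfdn4 in GENCODE, and the nearest, 166 bp upstream, lies in Pfdn4 and not in Cyp24a1. Which of these 2 genes the low levels belong to was not tested. Fragments at other starts also overlap other genes: E030042O20Rik at Nfe2l2, Gm15441 at Txnip, Acss2 at Ggt7, and Gssos1 and Gssos2 at Gss. The Txnip start fragments and the Nfe2l2 ones upstream of the start lie outside the named gene. To which gene these levels belong was not tested either. Away from starts, introns of Ephx1 (microsomal epoxide hydrolase), Mgst3 and Cyp27a1 were also low, at 3.30% and 23.3%, 12.9% and 14.7% in VEH. In gene bodies 8 of 26 fragments, or 30.8%, were under 25%, against 39.1% over all tested gene-body fragments outside island cores.

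Among the transferases, Gstm1 and Gstm4 join glutathione to electrophiles, and Mgst2 does so in membranes. The Gstm1 fragment 17 bp upstream of the start ran from 3.64% through a median of 6.20% to 8.37% in VEH. In DDT it ran from 2.80% through 6.81% to 26.7%, and the highest value was DDT replicate 4 on 30 calls. The group means were 6.09% ± 1.54 (SD, n = 12) and 7.89% ± 6.07 (n = 12), a difference smaller than the spread (unadjusted ANOVA p = 0.328). Without DDT replicates 4 and 12 the DDT mean was 6.08%.

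The Gstm4 start fragment, chr3:108044880-108044930, ran from 0% through 1.35% to 2.47% in VEH and from 0.577% through 1.21% to 71.8% in DDT. The value of 71.8% was DDT replicate 4 on 255 calls. The next highest library was DDT replicate 3 with 7.23%. The neighbouring fragment, 113 bp long, was also far higher in DDT replicate 4, at 68.2% on 280 calls, where the other libraries did not exceed 33.3%. With all libraries the DDT mean at the start fragment was 7.89% ± 20.2 (n = 12) and without replicates 4 and 12 it was 1.75%, against 1.35% ± 0.740 in VEH.

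The Mgst2 fragment 805 bp upstream of the start, the nearest one tested, stood apart from the fragments at the other starts. It had 97.3% ± 3.04 (n = 11) in VEH and 96.7% ± 2.99 (n = 10) in DDT (unadjusted ANOVA p = 0.688), with VEH levels of 91.7% to 100% and DDT levels of 91.2% to 100%. The groups overlapped throughout. Its 3 other tested fragments, in an intron and far upstream, had VEH means of 78.2% to 96.1%. The Gstm6 fragment, in the last part of the gene, had 96.5% in VEH and 96.8% in DDT.

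Among the oxidizing enzymes, Cyp24a1 breaks down active vitamin D, Cyp27a1 hydroxylates sterols, and Cyp20a1 is a cytochrome with little known function. At the Cyp20a1 start the fragment nearest the start had a VEH range of 0.331% to 7.77% and a DDT range of 0.906% to 3.45%. The third of 3 contiguous fragments, chr1:60343557-60343634, had 84.4% on 3651 calls in DDT replicate 4, where all other libraries had 5.39% to 14.1%. At Cyp24a1, a fragment 731 bp inside the gene had 47.9% on 618 calls in the same library, against 0.690% to 3.36% in the others. The Cyp24a1 fragment nearest the start had 2.89% ± 0.520 in VEH and 2.74% ± 1.15 in DDT (n = 12 each).

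Among the genes of glutathione supply, Nfe2l2 encodes NRF2, Gss encodes glutathione synthetase, and Ggt7 encodes a relative of the gamma-glutamyl transferases, which cleave glutathione. The Nfe2l2 fragment 193 bp upstream of the start was the lowest of the named starts, with 0.602% ± 0.412 in VEH and 0.526% ± 0.605 in DDT (n = 12 each) on 504 to 4955 calls a library. All 7 tested Nfe2l2 fragments at the start were under 20% in VEH, and their unadjusted p values were 0.313 or larger. At the fragment of 181 bp, 246 bp upstream, DDT replicate 4 had 48.3% on 1178 calls, and the other libraries had 11.1% to 26.7%. The Gss start had 2.18% in VEH and 2.82% in DDT, and the Ggt7 start had 1.57% and 1.68%. None of these differences exceeded the spread between libraries.

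Among the peroxide enzymes, Prdx6 reduces lipid peroxides, and Txnip binds and inhibits thioredoxin. The Txnip fragment 14 bp upstream of the start had 14.8% ± 4.39 in VEH and 14.1% ± 5.98 in DDT (n = 12 each), while the next fragment upstream had 0.972% and 0.761%. The Prdx6 start was read thinly, with 11 to 40 calls in the libraries that had a level. There 7 of 10 VEH levels and 6 of 8 DDT levels were 0%, and the highest was 16.7% in VEH replicate 9. Among the transporters, Slco4a1 takes up organic anions and Abcd3 carries fatty acids into peroxisomes. The start of Slco4a1 had 2.37% in VEH and 1.99% in DDT, where DDT replicates 4 and 12 were at 0% and the DDT mean without them was 2.38%. The start of Abcd3 had 11.1% in both groups. At the Abcd3 fragment 204 bp upstream DDT replicate 2 had 75% on 16 calls, and the other libraries had at most 17.6%.

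**Figure D2:**
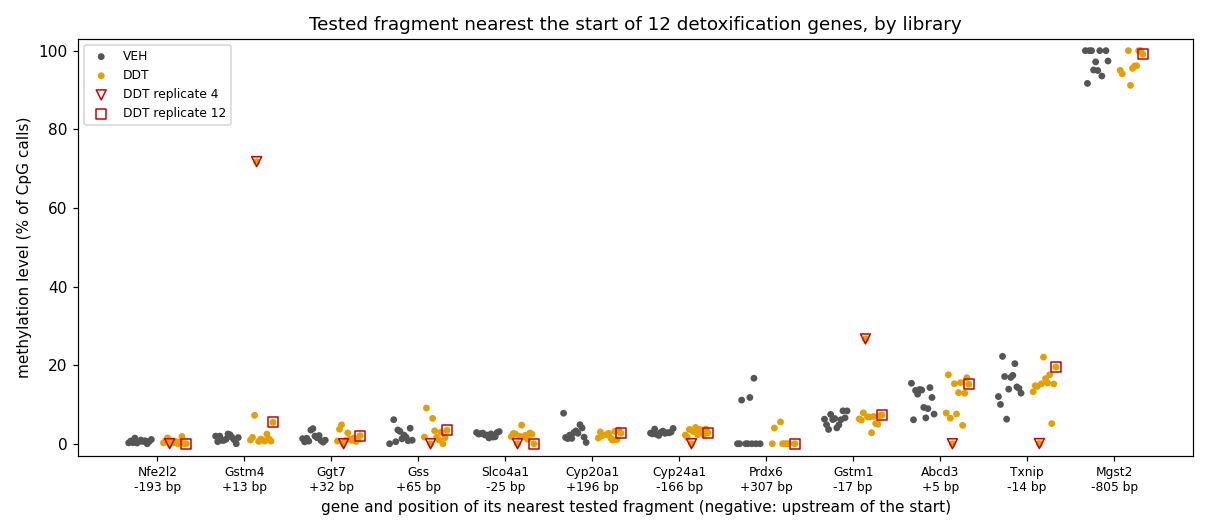
Methylation level, in percent of CpG calls, of the tested fragment nearest the start of 12 genes, with 1 point per library and the 2 DDT libraries that stood apart marked. VEH and DDT libraries overlap at every gene, and DDT replicate 4 alone lies at 71.8% at Gstm4 and at 26.7% at Gstm1.

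The comparison of DDT with VEH asked whether methylation in infant BAT differed after perinatal DDT at the tested fragments, on chromosomes 1 and 2 and part of 3. It used the ANOVA F test at every tested fragment with Benjamini-Hochberg adjustment over all 20225. At an adjusted p below 0.05 there were 0 fragments of detoxification genes, and 0 among all fragments tested, a background of 0%. The lowest of the adjusted values was 0.869. The paper, searching genome-wide, reported differentially methylated genes in infants exposed to DDT at an FDR below 0.05. Its results were not compared with these. With an unadjusted p below 0.05 there were 5 of 93, or 5.38%, 3 of them higher and 2 lower in DDT. The background was 845 of 20225, or 4.18%, so the share among detoxification genes was near it. Leaving out DDT replicates 4 and 12 gave 7 of 89 fragments, or 7.87%, against 4.51% of all. Of the 5 fragments, 4 were among the 7 and that of Cyp27a1 was not, and the 3 others were in Ephx1, in Cyp24a1 and upstream of Nfe2l2.

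By distance the 5 fragments fell outside the starts: 0 of 43 at starts, 3 of 26 in gene bodies and 2 of 24 upstream. The background in these classes was 3.58%, 4.73% and 4.37% of all tested fragments. Over the 93 fragments the median difference was 0.149 percentage points, against -0.163 over all tested fragments, and 51 fragments, or 54.8%, had a higher mean in DDT, against 43.1%. Upstream beyond 1000 bp 19 of 24 fragments had a higher DDT mean, against 43.7% of all. Of the 24, 8 were the upstream fragments of Cat and 5 those of Cyp24a1, so the 24 were not separate places in the genome. Of the other genes, Mgst2 and Gstm4 had only upstream fragments higher in DDT, and Prdx6, Nfe2l2 and Gstm1 had some in each direction.

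The smallest p belonged to the island placed 81502 bp upstream of Cat, the gene of catalase, which splits hydrogen peroxide. This fragment, chr2:103566661-103566731, lies at the start of Abtb2 in GENCODE, and holds 8 CpGs. VEH levels ran from 1.81% through a median of 4.07% to 6.52%, and DDT levels from 0% through 2.12% to 4.65%. The groups overlapped, with 10 of 12 DDT libraries below the VEH median. The means were 4.12% ± 1.81 and 2.12% ± 1.47 (n = 12 each), a difference of -2.003 ± 0.673 (SE) percentage points (unadjusted ANOVA p = 0.00697, adjusted p = 0.869). Without DDT replicates 4 and 12 the difference was -1.84.

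The other 6 fragments of that island had VEH means of 0.517% to 6.25% and higher means in DDT. At 3 of these a single DDT library lay far above the rest. DDT replicate 2 had 44.4% on 45 calls at one and 31.3% on 67 calls at another. DDT replicate 10 had 40.0% on 25 calls at yet another. At each of the 3, every other library had 15.6% or less. In that order, the DDT medians were 3.81%, 0.687% and 2.63%, against 1.88%, 1.61% and 0% in VEH.

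Both Cyp24a1 fragments were highly methylated and higher still in DDT. The coding exon fragment, chr2:170487970-170487999, ran from 86.5% through 88.4% to 92.9% in VEH and from 87.0% through 92.4% to 97.6% in DDT. DDT replicates 4 and 12 had too few calls there for a level, and 9 of the 10 other DDT libraries lay above the VEH median. The means were 89.1% ± 2.24 (n = 12) and 92.6% ± 3.28 (n = 10), a difference of 3.49 ± 1.18 (SE) percentage points (unadjusted ANOVA p = 0.00788, adjusted p = 0.869). The adjoining fragment had 32.9% in VEH and 34.9% in DDT, and the 2 after it 73.5% and 73.0%, and 76.3% and 78.1%. So the level changed sharply across a single MspI site in this exon in both groups.

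The upstream Cyp24a1 fragment, 31223 bp from the start and outside genes, ran from 84.3% through 89.7% to 93.1% in VEH and from 86.7% through 92.2% to 99.5% in DDT. The highest value, 99.5%, was DDT replicate 4 and the lowest DDT value was replicate 12. The means were 89.8% ± 2.59 and 92.8% ± 3.66 (n = 12 each; unadjusted ANOVA p = 0.0341), and the difference of 2.93 ± 1.30 (SE) percentage points became 2.85 without these 2 libraries. The 3 contiguous fragments before it had 95.3%, 97.5% and 77.4% in VEH and 95.5%, 97.6% and 77.6% in DDT.

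Abcb6 is a transporter of the ABC family that handles porphyrins. Its coding exon fragment, chr1:75177366-75177449, with 5 CpGs, ran from 89.6% through 97.1% to 99.4% in VEH and from 96.6% through 97.9% to 100% in DDT. The upper ends of the groups met, while 5 VEH libraries lay below the lowest DDT library. The means were 96.3% ± 2.64 (n = 12) and 98.4% ± 1.33 (n = 11), a difference of 2.18 ± 0.887 (SE) percentage points (unadjusted ANOVA p = 0.0229, adjusted p = 0.869). The next 2 fragments had 88.5% and 62.0% in VEH and 87.8% and 63.6% in DDT.

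The Cyp27a1 fragment, chr1:74718430-74718469, 4894 bp into the gene, was the only tested fragment of that gene. It ran from 13.1% through 14.3% to 16.7% in VEH and from 0.990% through 12.6% to 18.4% in DDT. DDT replicate 4 had 0.990% on 101 calls and DDT replicate 12 had 1.08% on 93 calls, while the other DDT libraries had 8.89% or more on 315 calls or more. The means were 14.7% ± 1.22 and 11.1% ± 5.37 (n = 12 each), a difference of -3.57 ± 1.59 (SE) percentage points (unadjusted ANOVA p = 0.0349). Without the 2 libraries the difference was -1.56 (unadjusted ANOVA p = 0.102).

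**Figure D3:**
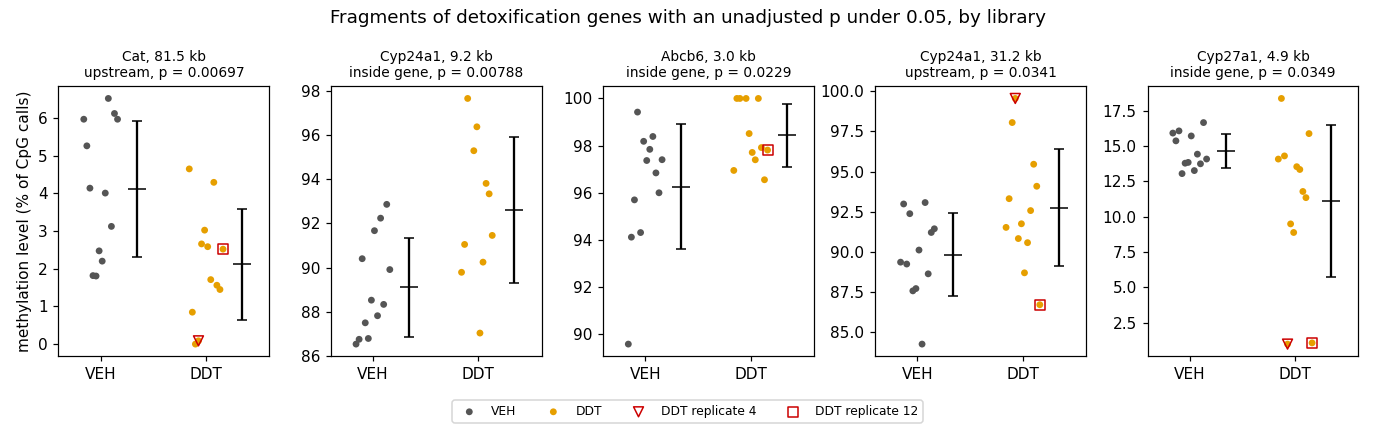
Methylation level, in percent of CpG calls, by library at the 5 fragments with an unadjusted p below 0.05, on axes that differ between panels and do not start at 0, with the group mean and SD beside the points. The groups overlap in every panel, and at Cyp27a1 DDT replicates 4 and 12 lie at 0.990% and 1.08%, away from the other libraries.

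The fragments ranked 6 to 10 had unadjusted p values of 0.0939 to 0.122. They were a coding exon of Ggt7 (72.2% in VEH, 75.9% in DDT), a fragment 180 bp into Ggt7 (2.99% and 1.77%), a fragment 73543 bp upstream of Prdx6 (96.8% and 94.7%), an intron of Abca12, a lipid transporter (97.9% and 99.2%), and a fragment 47894 bp upstream of Nfe2l2. The difference at the Ggt7 exon, 3.76 percentage points, became 2.06 without DDT replicate 12, which had 92.9% on 14 calls. The Nfe2l2 fragment had the largest difference of the 10, from 80.4% ± 9.06 in VEH to 72.9% ± 13.2 in DDT (n = 12 each). It ran from 58.6% through 83.0% to 89.5% in VEH and from 44.6% through 78.9% to 84.5% in DDT. DDT replicates 12 and 4 had the lowest levels, 44.6% and 54.5%, and without them the difference of -7.45 percentage points became -2.78.

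At gene starts, low fragments of 100 bp or more had a higher median level than shorter ones in both groups. Among the 42 low fragments at starts, 16 of 30 to 49 bp had a VEH median of 3.74%, 19 of 50 to 99 bp had 2.82%, and 7 of 100 bp or more had 14.8%. All tested low fragments at starts had 3.67%, 3.50% and 10.2% in these classes. Contiguous fragments showed it within a gene. At Nfe2l2 a fragment of 53 bp had 0.602% in VEH, and the next, of 181 bp, had 19.7%. At Gss 63 bp had 0.510% and the next 187 bp had 14.5%, and at Slco4a1 32 bp had 2.37% and the next 137 bp had 14.0%. At Txnip 85 bp had 0.972% and the next 139 bp had 14.8%. In 7 of 7 contiguous pairs of the 5 genes with 1 fragment of at least 100 bp and 1 shorter, the longer had the higher level, in VEH and in DDT. Over all tested pairs it was 946 of 1099, or 86.1%, in VEH. The pairs at Gstm4 shared fragments, so the 7 were not separate observations. Single fragments lay outside the pattern of the classes, such as the Gss fragment at the start, of 114 bp and 2.18%, and the Slco4a1 fragment of 70 bp, 794 bp into the gene, with 15.0%. The part of fragment length in the differences between starts was not tested.

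**Figure D4:**
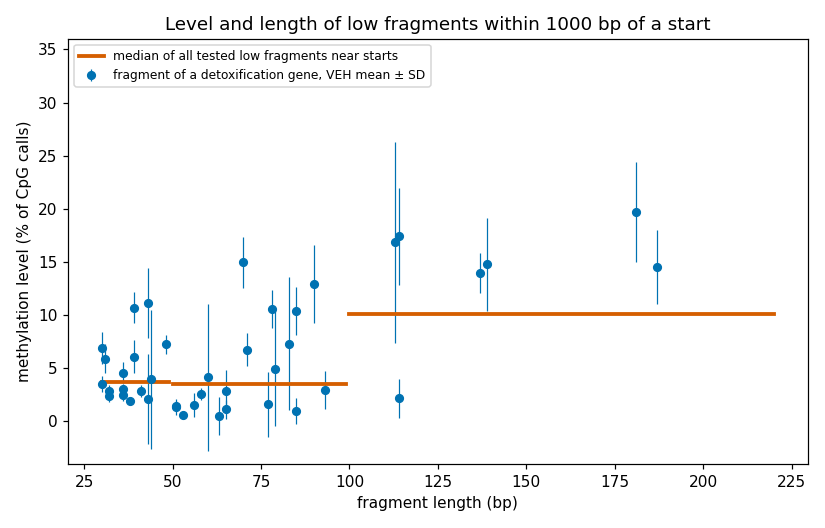
Fragment length in bp and VEH methylation level (mean ± SD over libraries, percent of CpG calls) of the 42 fragments under 25% within 1000 bp of the start of a detoxification gene. Horizontal lines give the median of all tested low fragments at starts in each length class, 3.67%, 3.50% and 10.2%, and fragments of 100 bp or more lie mostly above 10%.

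Per gene, the mean over its tested fragments of the level minus the fragment's mean over all libraries was compared in the same way over 3101 genes. At an adjusted p below 0.05 there were 0 of the 19 genes and a background of 0%. At an unadjusted p below 0.05 there were 2 of 19, Cat and Cyp27a1, against a background of 114 of 3101, or 3.68%. Cat was higher in DDT by 1.998 ± 0.690 (SE) percentage points over 11 fragments (unadjusted ANOVA p = 0.00838, adjusted p = 0.837), the opposite of its single fragment with the smallest p. By library the Cat mean deviation ran from -2.44 to -0.103 in VEH. In DDT it ran from -1.07 to 5.81, with DDT replicates 2, 12, 10 and 4 at 5.81, 4.24, 2.95 and 2.79 and the other 8 at 0.547 or less. Over only the Cat fragments in the gene or up to 5000 bp upstream the difference was 1.46 (unadjusted ANOVA p = 0.349), and with the median over fragments it was -0.0620. The Cyp27a1 difference is that of its 1 fragment. The 17 other genes had differences of -2.18 to 3.66 percentage points and unadjusted p values of 0.183 to 0.884. The largest, 3.66 at Gstm4 and 2.94 at Cyp20a1, became 0.121 and -0.425 without DDT replicates 4 and 12. Without these libraries the 2 genes at an unadjusted p below 0.05 (10.5%, against 3.41% of all genes) were Cat (1.52) and Abcb6 (1.47).

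**Figure D5:**
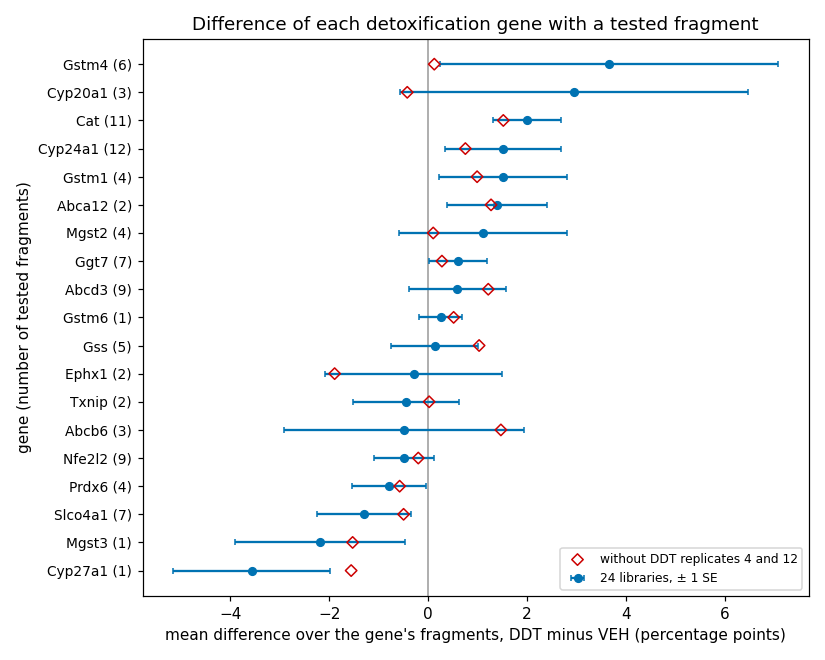
Difference, DDT minus VEH in percentage points, of the mean over each gene's tested fragments for the 19 genes, with 1 SE, and the same without DDT replicates 4 and 12. Gstm4 and Cyp20a1 move from 3.66 and 2.94 to 0.121 and -0.425, and Cat from 1.998 to 1.52.

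Over the fragments that had a level in all libraries, 44 of the 93, the mean level per library was 16.7% ± 0.463 in VEH (15.8% to 17.5%) and 16.9% ± 1.08 in DDT (15.4% to 19.5%), with the extremes of DDT at replicates 12 and 4. The spread was wider in DDT: the SD over DDT libraries exceeded that over VEH libraries at 73 of 93 fragments, or 78.5%, against 79.2% of all, with medians of 3.88 and 2.25 percentage points. Without DDT replicates 4 and 12 it did so at 56 fragments, with a DDT median of 2.90.

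Sites for the receptors named above were looked for as letters on both strands. The core of the xenobiotic response element, GCGTG, occurred in 19 of the 93 fragments, or 20.4%, against 13.7% of all tested fragments, and 5 of the 19 were at Cyp24a1. The antioxidant response element TGACNNNGC occurred in 3, or 3.23%, against 2.86%: an Ephx1 intron, the 181 bp fragment at the Nfe2l2 start and an Mgst2 intron. Neither motif contains the other. RefSeq promoter windows of 300 bp around a start in GRCm38.p6 were at hand for 31 of the 36 genes. GCGTG was in 13 of their 39 promoters, or 33.3%, against 32.4% of 32851, and TGACNNNGC in 5, or 12.8%, against 12.4%. These 5 promoters were those of Gsta3, Gstm5, Gstm7, Gclm and Nfe2l2.

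Other genes of detoxification were read from a second list of 94 symbols written from general knowledge. Of these 18 had fragments and 17 had tested ones, 72 in all, of which 5, or 6.94%, had an unadjusted p below 0.05 against the background of 4.18%. Higher in DDT were 2 fragments of Slc7a11, the cystine carrier that feeds glutathione synthesis (95.2% in VEH and 96.5% in DDT, 96.6% and 97.9%), and 1 of Cyp7b1, an oxysterol hydroxylase (97.3% and 99.2%). Lower were 1 each of Idh1, an isocitrate dehydrogenase that makes NADPH (2.51% and 1.77%), and of Abca2, a lipid transporter (1.66% and 1.30%). The smallest adjusted p among the 72 was 0.869.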

How the data were processed

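RRBS was compared in 24 libraries, 12 VEH and 12 DDT, grouped by the treatment in their titles. Per the study's methods and the submitters' processing notes, reads were trimmed, checked with FastQC and aligned to GRCm38 with Bismark 0.15.0 and Bowtie2. The authors deposited, for each MspI fragment and library, the count of CpG calls that were methylated and the count of those that were not, without normalization, with a gene name, distance and CpG island class for each fragment. Reads began at fragment ends, so the middle of the longest fragments gave no calls. The table analysed here covers chromosomes 1 and 2 and chromosome 3 up to position 136670346, and 100% of its fragments began at an MspI site.

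Levels were methylated calls over all calls, with at least 10 calls. Fragments with at least 8 libraries per group were tested by the ANOVA F test that the study names, with Benjamini-Hochberg adjustment over all 20225 tested fragments or 3101 genes and a threshold of 0.05. The tests were run first on simulated calls with known shifts. Gene positions came from GENCODE M21 and sequences from RefSeq, both GRCm38. Named were the fragment with the smallest p and the one nearest the start of each gene, and the 10 smallest p over all. Some fragments with a library more than 20 percentage points from the median, and neighbours of named fragments, were named after their values were seen. The members and lists were chosen with earlier results of these data known. The alternatives tried were limma 3.58.1 on the log2 ratio of calls, a quasi-binomial regression, a depth covariate, a replicate block, call minimums of 5, 20 or none, only fragments with no level missing, libraries left out, another summary per gene, and, added after seeing the data, permutation and Wilcoxon tests. Python 3.11.15, SciPy 1.17.1 and R 4.3.3 were used.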

Additional observations from a re-analysis of the deposited data

How the results depend on the processing

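The count of detoxification fragments at an adjusted p below 0.05 was 0 under every alternative run, as was that of genes. At an unadjusted p below 0.05 the count of fragments was 5 with the ANOVA (5.38%, against 4.18% of all fragments), 6 with the quasi-binomial regression (6.45%, against 7.72%), 5 with limma (5.38%, against 3.51%) and 8 with the Wilcoxon test (8.60%, against 4.35%). It was also 8 with no call minimum (6.11%, against 4.09%), 3 over fragments with no level missing (6.82%, against 4.24%) and 0 where the difference had to reach 5 percentage points. For that last setting the share over all fragments was not computed. Leaving out 1 library at a time gave 3 to 8 fragments, 3 without DDT replicate 4 (3.26%, against 4.24%) and 8 without DDT replicate 12 (8.89%, against 4.44%). The same count of genes, 2, was 3 with call minimums of 5, of 20 and none (14.3%, 15.8% and 13.6%, against 4.13%, 3.16% and 4.45% of all genes). It was 1 over fragments with no level missing (6.25%, against 4.06%) and with the depth covariate (5.26%, against 2.93%). With the median over fragments (5.26%, against 4.26%) and with fragments in the gene or up to 5000 bp upstream (5.26%, against 3.74%) it was also 1. Leaving out 1 library gave 1 to 2 genes (5.26% or 10.5%, against 2.94% to 5.21% of all genes). The gene count was 1 without VEH replicates 3 or 11 or DDT replicates 5 or 12. The median difference of 0.149 percentage points stayed between 0.0865 and 0.257 when 1 library was left out. It was -0.211 with no call minimum, -0.0700 over fragments with no level missing and 0.0452 with a call minimum of 5. In the remaining alternatives that gave it, it was 0.12 to 0.26.

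The gene mean difference of Cat, 1.998, was -0.596 with no call minimum and -0.0620 with the median over fragments, and the difference at 180 bp into Ggt7, -1.22, was 0.282 with the quasi-binomial regression. The cause was not tested. Of the 5 fragments with an unadjusted p below 0.05, the Cat and the Cyp24a1 exon fragment kept it whichever library was left out, with largest p values of 0.0140 and 0.0177. The largest p values were 0.0402 for Abcb6, which had 0.123 with limma, 0.0663 for the upstream Cyp24a1 fragment without DDT replicate 4 and 0.0643 for Cyp27a1 without DDT replicate 12. The upstream Cyp24a1 fragment also missed 0.05 without VEH replicates 5, 6 or 8 or DDT replicates 3, 10 or 11, and Cyp27a1 without VEH replicates 3 or 11 or DDT replicates 4, 5 or 6. Fragments ranked 6 to 10 came below 0.05 when 1 library was left out: Prdx6 without VEH replicates 5 or 8 or DDT replicate 10, the 2 of Ggt7 without VEH replicate 2, DDT replicate 8 or DDT replicate 7, Nfe2l2 without VEH replicate 8 and Abca12 without DDT replicate 1. Two-sided permutation tests gave 0.00820 and 0.00916 for the Cat and Cyp24a1 exon fragments.

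The replicate numbers did not pair the libraries: same-numbered VEH and DDT libraries correlated at -0.180 to 0.199, over 0.1 in 3 of 12 pairs, and 1 of 12 correlated best with its own number. The fit with the number as a block called 5 fragments and 2 genes at the unadjusted threshold and 0 adjusted. Depth left 200 fragments untested. The DDT mean at the Gstm4 start, 7.89%, was 2.09% without DDT replicate 4. The limma fit gave no median in percentage points, and fragments missing a level had no value in the fit that allows none missing.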
